A study of Homo sapiens with 6 samples.

Results

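Accessible chromatin was described at 10 genes that the tumour suppressor p53 is known to activate, CDKN1A, BTG2, GADD45A, MDM2, BAX, BBC3, FAS, TNFRSF10B, SESN1 and XPC, out of 19974 protein-coding genes. The genes were chosen by name, with earlier results of these data already known. Every listed peak inside a gene or within 10 kb of it was collected from 6 peak lists, 1 per library, and called a gene-end peak when it came within 1000 bp of either end of the RefSeq gene (GRCh38). ATAC-seq, in which the Tn5 transposase cuts open DNA, had been run on Huh7, an established human hepatocellular carcinoma line. All cells carried a knockout of endogenous ARID1A, the DNA-binding subunit of the BAF chromatin remodelling complex, and a lentiviral Flag-tagged ARID1A put back by overexpression. In 2 libraries the returned protein was V2084D, a C-terminal missense form, together with knockdown of STUB1, a chaperone-linked ubiquitin ligase (V2084D shSTUB1). In 2 libraries it was V2084D alone (V2084D), and in 2 it was wild-type ARID1A (WT). No control hairpin is named for V2084D or WT cells, no agent that activates p53 is named, and the labels do not say whether each group is 1 clone or a pool. Having the hairpin and losing STUB1 therefore cannot be told apart. The labels do not tie the replicates to separate cultures, and p-values measure only the spread between these libraries.

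p53 is a transcription factor that binds paired decamer response elements after DNA damage or other stress. Its targets stop the cell cycle, start apoptosis, repair DNA and, through the ubiquitin ligase MDM2, lower p53 itself. The peak lists do not measure p53 activity. The series title places the experiment in work on how ARID1A C-terminal missense changes act in cancer.

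Of the 10 genes, 8 have at least 1 start site in the RefSeq promoter table, with 15 start-site windows between them; GADD45A and TNFRSF10B are named only. The 250 bases before 5 of these starts are shown because the position of the peaks relative to them carries the results. All are from RefSeq GRCh38.p14 and read 5′ to 3′ on the gene's strand. The bases before the first MDM2 start (chr12:68807922-68808171, plus strand) overlapped a peak in all 6 libraries, and those before the third (chr12:68808767-68809016, plus strand) in none. Those before the CDKN1A start (chr6:36678464-36678713, plus strand) overlapped a peak in 2 libraries. The third FAS start (chr10:88991181-88991430, plus strand) and the internal SESN1 start (chr6:109008989-109009238, minus strand) hold a match to the p53 response element. Capitals in the FAS, the SESN1 and the later MDM2 sequence mark that match, and in the other sequences GGGCGG or CCAAT on either strand.
MDM2 first start: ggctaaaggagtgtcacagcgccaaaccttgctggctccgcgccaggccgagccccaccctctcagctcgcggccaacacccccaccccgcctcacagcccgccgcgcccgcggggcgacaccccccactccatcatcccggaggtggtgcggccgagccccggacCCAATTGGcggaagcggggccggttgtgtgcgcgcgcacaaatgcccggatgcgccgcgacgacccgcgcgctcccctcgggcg
MDM2 later start: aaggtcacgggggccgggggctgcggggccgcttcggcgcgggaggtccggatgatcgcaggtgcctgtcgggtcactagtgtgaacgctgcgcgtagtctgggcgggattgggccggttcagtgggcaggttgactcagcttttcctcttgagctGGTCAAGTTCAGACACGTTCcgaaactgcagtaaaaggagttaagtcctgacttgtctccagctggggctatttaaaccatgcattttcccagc
CDKN1A start: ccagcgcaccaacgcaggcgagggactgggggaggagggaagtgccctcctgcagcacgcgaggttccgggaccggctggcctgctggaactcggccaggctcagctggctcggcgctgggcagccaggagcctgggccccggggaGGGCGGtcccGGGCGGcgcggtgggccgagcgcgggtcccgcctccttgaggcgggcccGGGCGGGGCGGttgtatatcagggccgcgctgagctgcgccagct
FAS last start: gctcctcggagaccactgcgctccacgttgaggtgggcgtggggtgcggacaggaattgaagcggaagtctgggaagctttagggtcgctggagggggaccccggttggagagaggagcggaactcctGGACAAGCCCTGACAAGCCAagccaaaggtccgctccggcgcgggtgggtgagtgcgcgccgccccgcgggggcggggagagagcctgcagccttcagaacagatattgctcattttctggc
SESN1 internal start: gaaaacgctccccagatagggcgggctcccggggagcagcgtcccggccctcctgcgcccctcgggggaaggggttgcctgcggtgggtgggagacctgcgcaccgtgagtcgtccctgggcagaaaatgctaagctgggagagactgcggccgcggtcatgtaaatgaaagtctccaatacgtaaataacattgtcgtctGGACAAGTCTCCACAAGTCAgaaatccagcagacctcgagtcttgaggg

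The element was searched as the 20-base p53 response element consensus, without a spacer, with its 4 core C and G bases kept and up to 3 mismatches elsewhere, a rule chosen after the letters had been seen. It was found in 4 of the 15 windows, and the 2 MDM2 matches among them are the same 20 bases read from neighbouring starts. In all 22132 windows of 250 bases before starts of protein-coding genes, 0.949% held it. The element of MDM2 (chr12:68808923-68808942, 2 mismatches) spanned positions -94 to -75 from the third start, 210 bp from the nearest listed MDM2 peak. The element of FAS (chr10:88991309-88991328, 2 mismatches) spanned positions -122 to -103 from the third start and lay 164 bp from the nearest FAS peak. The element of SESN1 (chr6:109009018-109009037, 3 mismatches) spanned positions -49 to -30 from its start. A peak of V2084D shSTUB1 replicate 1 covered it whole, and a peak of WT replicate 1 overlapped only its far edge. A match describes letters and is not evidence that p53 was bound. Elements outside these windows, with a spacer, or lacking a core base would be missed by this rule.

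Other motifs were searched on both strands of the same windows. GGGCGG, the letters bound by SP-family factors, was in 53.7% of all windows, in every window of these genes except BBC3 and the first MDM2 start, and had 4 matches before the CDKN1A start. CCAAT was in 32.7% of all windows and had 2 overlapping matches, on opposite strands, before the first MDM2 start. The exact 10-base p53 unit (5.29% of all windows) was found in the FAS and SESN1 windows shown, inside the capitals. TATAAA (9.0%) was in none of the 15, the exact 20-base element with a spacer of 0 to 13 bases (0.0136%) in none, and the AP-1 letters TGANTCA (5.35%) in the first FAS window, the BBC3 window and both windows of the later MDM2 starts.

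The libraries differed in depth, and their lists in length. On chromosomes 1 to 22 and X, the lists held 21215 and 15008 summits in V2084D shSTUB1 replicates 1 and 2, 9036 and 29968 in V2084D, and 10213 and 7234 in WT. Relative depth, with WT replicate 2 as 1, was 1.49 and 1.23 in V2084D shSTUB1, 1.17 and 1.70 in V2084D, and 1.01 and 1 in WT. Depth here is the lowest local background recovered from the fold and p-values of a list's summits. It stands in for a count of reads, which the lists do not hold. The median summit had 8 to 12 reads per library, and a gene without a listed peak is one where none passed at that depth. In bulk cells, fewer open cells and less opening per cell cannot be told apart. The same cells showed few gene-end peaks at liver markers. Of 12 hepatocyte markers, 2 and 0 had one in V2084D shSTUB1, 1 and 3 in V2084D, and 1 and 1 in WT; those found were TF, APOA1 and FOXA1, while ALB, AFP, APOB, TTR, SERPINA1, HNF4A, FOXA2 and FGB were among those with none. COL1A1, of 7 fibroblast and stellate markers, and SYT1, of 5 neuronal markers, had one in all 6 libraries. SPI1, of 6 leukocyte markers, had one in 3 libraries, KDR, of 5 endothelial markers, in 5, GAP43 in 3 and ACTA2 in 2, and no other marker of these lists had one. The part of these values in the results below was not tested.

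Across the 6 libraries the p53 target genes carried 48 peaks at gene ends and 21 elsewhere, in 20 merged regions. Gene-end peaks were present in all 6 libraries at 4 of the 10 genes (MDM2, GADD45A, SESN1 and XPC), in 5 at BAX and BTG2, in 4 at TNFRSF10B and in none at CDKN1A, FAS and BBC3. Of all protein-coding genes, 15.8% were reached at a gene end in all 6 lists and 41.8% in none. Gene-end peaks of the p53 target genes had a median fold over local background of 5.43 (range 3.81 to 9.52) and a median −log10 q of 4.88. Those elsewhere had a median fold of 4.85 (3.42 to 8.11) and a median −log10 q of 3.96. These medians pool libraries of unequal depth. The peaks elsewhere include those over internal starts of CDKN1A, FAS and SESN1, and the highest fold, 8.11, was over the first FAS start. Fold and q are as the authors deposited them per peak, and ranks were taken only within a list.

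**Figure D1:**
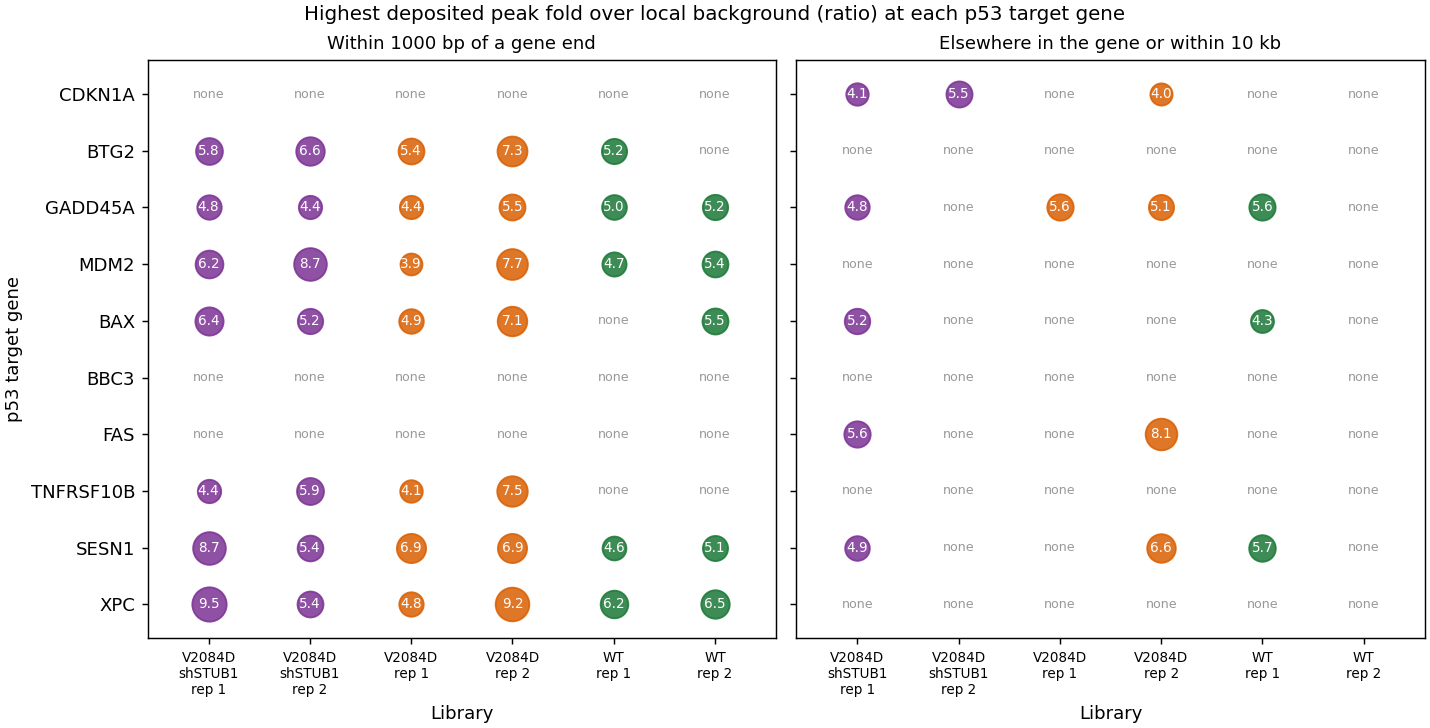
Each circle is the highest deposited fold over local background (a ratio, printed in the circle; area grows with it) of the peaks at a p53 target gene (rows) in a library (columns), within 1000 bp of a gene end (left) or elsewhere in the gene or within 10 kb (right). TNFRSF10B has circles in the 4 libraries with V2084D and none in WT, CDKN1A and FAS have none at gene ends, and BBC3 has none at all.

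V2084D was compared with WT to ask which accessible regions differ with the missense form. A gene-end peak was listed at 7 and 7 of the 10 p53 target genes in V2084D replicates 1 and 2, against 5 and 5 in WT. The genes that made the difference were TNFRSF10B, with a peak in both V2084D and neither WT library, BTG2, missing in WT replicate 2, and BAX, missing in WT replicate 1. An exact permutation test of the count gave a two-sided p of 0.333, the smallest that 2 against 2 libraries can give. In the same libraries, 31.1% and 54.7% of all protein-coding genes were reached at an end in V2084D, against 32.3% and 24.2% in WT. TNFRSF10B was the 1 of 10 genes with a gene-end peak in both V2084D and neither WT library, a pattern found for 5.07% of all protein-coding genes. None of the 10 had the opposite pattern, found for 0.0501%. A count of 1 in 10 is near that background and is no result about these genes.

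V2084D shSTUB1 was compared with V2084D to ask what STUB1 knockdown alters in V2084D cells. A gene-end peak was listed at 7 and 7 of the p53 target genes in V2084D shSTUB1 and at 7 and 7 in V2084D, and they were the same 7 genes in all 4 libraries, although 48.1% and 40.6% of all protein-coding genes had one in V2084D shSTUB1 and 31.1% and 54.7% in V2084D. The exact permutation test gave a two-sided p of 1. None of the 10 genes was reached in both V2084D shSTUB1 and neither V2084D library, a pattern of 0.365% of all protein-coding genes, and none had the opposite pattern, of 0.656%. Against WT, V2084D shSTUB1 also had 7 and 7 genes, against 5 and 5 in WT (two-sided p of 0.333 by an exact permutation test, again the smallest possible). TNFRSF10B was again the 1 gene reached in both V2084D shSTUB1 and neither WT library, a pattern of 7.07% of all protein-coding genes, and the opposite pattern, of 0.135%, was met by none. Both comparisons with WT use the same WT libraries, and the V2084D libraries also serve 2 comparisons.

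The same patterns were counted with other ways of placing the peaks. Within 10 kb, TNFRSF10B had any peak in both V2084D and neither WT library, where 5.8% of all protein-coding genes did, and none of the 10 genes had the opposite pattern (0.0651%). Between V2084D shSTUB1 and V2084D none of the 10 met either pattern (0.411% and 0.691% of all genes). CDKN1A and TNFRSF10B had any peak in both V2084D shSTUB1 and neither WT library, against 8.5% of all genes, and none had the opposite (0.15%). In promoter windows, from 250 bp before to 50 bp after a listed start, 8 of the genes could be read. Of these, 6 and 6 had a peak in V2084D shSTUB1, 5 and 7 in V2084D, and 4 and 4 in WT. None of the 8 had such a peak in both libraries of 1 group and neither of another. The background was 5.08% for V2084D and not WT, 0.101% for WT and not V2084D, 0.487% for V2084D shSTUB1 and not V2084D, 0.803% for V2084D and not V2084D shSTUB1, 6.73% for V2084D shSTUB1 and not WT, and 0.164% for WT and not V2084D shSTUB1.

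**Figure D2:**
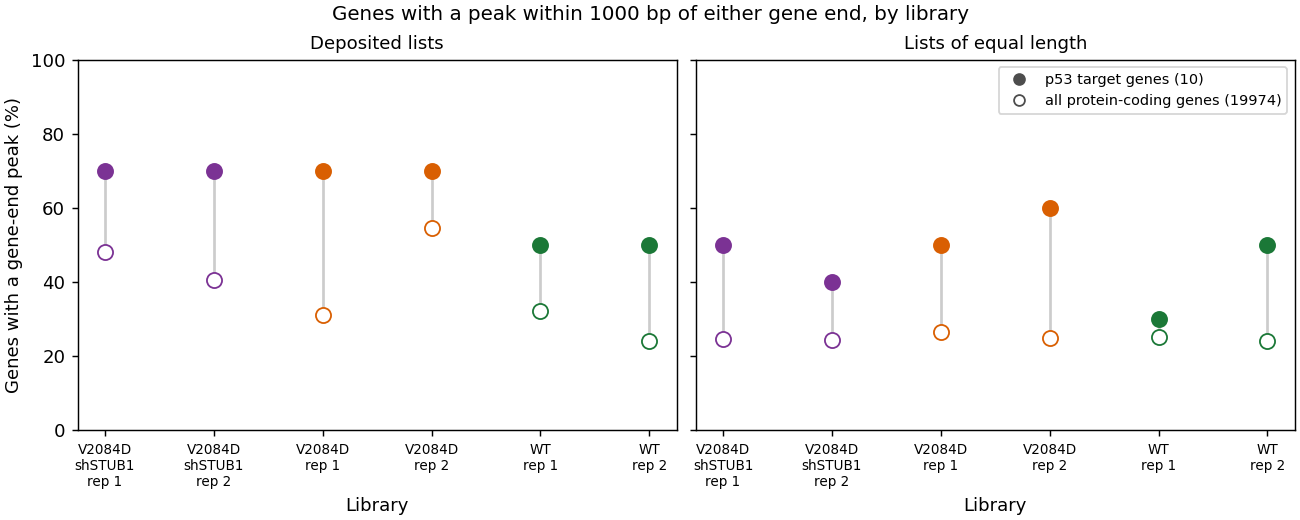
Share of genes with a peak within 1000 bp of a gene end (vertical axis, %) in each library (horizontal axis), for the 10 p53 target genes (filled) and for all 19974 protein-coding genes (open), in the deposited lists (left) and with every list cut to 7234 summits (right). In the deposited lists 7 of the 10 genes have a peak in each of the 4 libraries with V2084D and 5 in each WT library, and at equal length the counts run from 3 to 6 and the groups overlap.

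The lists differed in length, and with every list cut to the 7234 strongest summits, a gene-end peak was left at 5 and 4 of the p53 target genes in V2084D shSTUB1, 5 and 6 in V2084D, and 3 and 5 in WT, so that the groups overlapped. TNFRSF10B was left with a peak at its upper end in V2084D shSTUB1 replicate 2, with the lower-end peak near RHOBTB2 in V2084D replicate 2, and with none in the other libraries. By all peaks within 10 kb, the p53 target genes had 17 and 11 in V2084D shSTUB1 (14 ± 4.24, SD, n = 2), 9 and 18 in V2084D (13.5 ± 6.36) and 9 and 5 in WT (7 ± 2.83). The exact permutation tests gave two-sided p-values of 0.667 for V2084D against WT, 1 for V2084D shSTUB1 against V2084D and 0.333 for V2084D shSTUB1 against WT. Per 10000 peaks of the list, these were 9.67 and 8.34 in V2084D shSTUB1, 10.7 and 7.83 in V2084D, and 9.55 and 7.42 in WT, ranges that overlapped. At equal list length, 6 and 6 peaks were left in V2084D shSTUB1, 7 and 8 in V2084D, and 6 and 5 in WT.

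The arrest genes were CDKN1A, which encodes the cyclin-dependent kinase inhibitor p21, and BTG2, an antiproliferative partner of mRNA deadenylation. CDKN1A (chr6:36676463-36687332) had no gene-end peak, and its listed start lies 2251 bp inside the annotated gene, outside the 1000 bp window. A peak over that start was listed in V2084D shSTUB1 replicate 2 (fold 5.51, 12 reads at the summit, summit at -52 bp from the start) and in V2084D replicate 2 (fold 3.99, 12 reads, summit at -53 bp). V2084D shSTUB1 replicate 1 had instead a peak 315 bp downstream of the start (fold 4.07, 9 reads), which overlapped neither of these. Both WT libraries and V2084D replicate 1 had no peak anywhere within 10 kb of CDKN1A. Peaks further inside the gene were listed in V2084D shSTUB1 replicate 1 (fold 3.6, 1666 bp downstream of the start) and V2084D replicate 2 (fold 3.96, 1713 bp downstream). A flanking peak of 5 reads had its summit at -11527 and -11427 bp from the start in V2084D shSTUB1 replicate 2 and V2084D replicate 2. The libraries with a CDKN1A peak were the 3 deepest, and whether depth sets the pattern was not tested.

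BTG2 (chr1:203305519-203309602) carried 1 peak over its start in 5 libraries. The folds were 5.83 and 6.58 in V2084D shSTUB1, 5.43 and 7.25 in V2084D and 5.15 in WT replicate 1, with no peak in WT replicate 2, the shallowest library. The summits held 11 and 14 reads in V2084D shSTUB1, 9 and 18 in V2084D and 9 in WT replicate 1. They lay at -59 to -148 bp from the start, in a window of 74.8% G and C. The V2084D shSTUB1 and V2084D ranges of reads overlapped, and WT replicate 1 equalled the lower V2084D value.

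GADD45A (chr1:67685201-67688334), a stress sensor with roles in arrest and repair, is known to be activated by p53 through an element inside the gene. Its lower end carried a peak in every library. The folds at that end were 4.82 and 4.4 in V2084D shSTUB1, 4.4 and 5.48 in V2084D, and 4.97 and 5.19 in WT. The reads at the summit were 21 and 15 in V2084D shSTUB1, 13 and 30 in V2084D, and 14 and 15 in WT, and divided by relative depth 14.1 and 12.2 in V2084D shSTUB1, 11.2 and 17.7 in V2084D, and 13.8 and 15 in WT, with overlapping groups. A separate region inside the gene, from 67686295 to 67686961 and 647 bp from the first, held a peak in V2084D shSTUB1 replicate 1 (fold 4.85, 21 reads), V2084D replicate 1 (5.63, 17 reads), V2084D replicate 2 (5.12, 28 reads) and WT replicate 1 (5.59, 16 reads). V2084D shSTUB1 replicate 2 and WT replicate 2 had none there. This internal region was the most widely shared of those outside the gene ends, in 4 of 6 libraries.

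MDM2 (chr12:68808172-68850686), the ubiquitin ligase that degrades p53, is known to be read from a constitutive promoter and from a second promoter in its first intron that p53 activates. A peak over the 250 bases before the first start was present in all 6 libraries, with folds of 6.25 and 8.65 in V2084D shSTUB1, 3.89 and 7.69 in V2084D, and 4.74 and 5.42 in WT. The summits held 13 and 17 reads in V2084D shSTUB1, 6 and 21 in V2084D, and 8 and 8 in WT. By reads not divided by relative depth, the V2084D replicates lay on either side of all other libraries. Divided by relative depth, they had 5.15 and 12.4, and V2084D shSTUB1 replicate 2 was higher, at 13.8. The peak of V2084D replicate 1 was among the weakest 5.65% of its list, and that of V2084D replicate 2 stood at the 89.7th percentile of its own. V2084D replicate 2 listed 2 further MDM2 peaks beside the main one, and the nearer to the later starts ended at 68808712. No library listed a peak over the 250 bases before the later starts, where the element shown above lies.

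**Figure D3:**
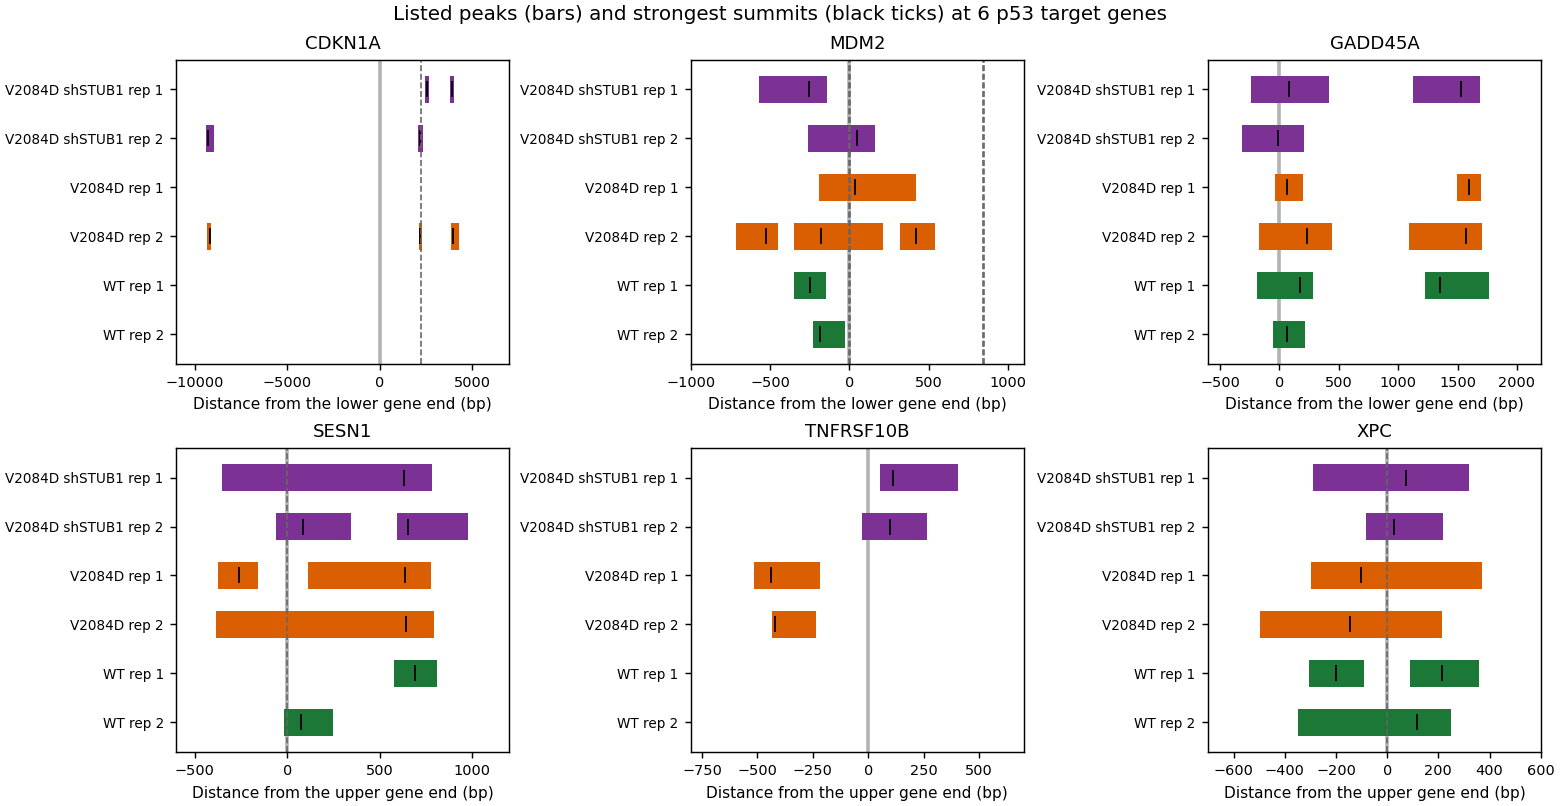
Bars are the listed peaks and black ticks their strongest summits, plotted as distance in bp from a gene end (thick grey line; the lower end for CDKN1A, MDM2 and GADD45A, the upper end for SESN1, TNFRSF10B and XPC) for each library (rows); dashed lines are RefSeq start sites where the promoter table lists them. At TNFRSF10B the V2084D shSTUB1 summits lie 112 and 99 bp outside the upper end and the V2084D summits at -437 and -423 bp from it, inside the gene, with no bar in WT; peaks of SESN1, TNFRSF10B and XPC outside the axes are not drawn.

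The mitochondrial apoptosis genes differed from each other. BAX (chr19:48954875-48961798), which permeabilises the mitochondrial outer membrane, had a peak at its start in 5 libraries, which in WT replicate 2 stopped short of the start itself. The folds were 6.44 and 5.19 in V2084D shSTUB1, 4.89 and 7.07 in V2084D, and 5.48 in WT replicate 2, and the summits held 12 and 7 reads in V2084D shSTUB1, 8 and 12 in V2084D, and 7 in WT replicate 2. WT replicate 1 had no BAX gene-end peak, although its list was longer than that of WT replicate 2. Its only BAX peak (fold 4.27) and 2 of V2084D shSTUB1 replicate 1 (3.44 and 5.25) lay in the flank, within 1000 bp of an end of FTL, the gene of ferritin light chain. BBC3 (chr19:47220824-47232860), which encodes the BH3-only protein PUMA, had no listed peak in any library inside the gene or within 10 kb.

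The death receptor genes had no peak within 10 kb in either WT library, where 45.9% and 35.4% of all protein-coding genes had one, so that a gene without one was the more common case. FAS (chr10:88964050-89017059) had a peak over its first start, 26748 bp inside the annotated gene, in V2084D shSTUB1 replicate 1 (fold 5.61, 10 reads) and V2084D replicate 2 (fold 8.11, 17 reads). V2084D shSTUB1 replicate 2, V2084D replicate 1 and both WT libraries had no FAS peak, so neither group with V2084D had it in both libraries. The same peak lay within 1000 bp of an end of ACTA2, which encodes smooth muscle actin.

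TNFRSF10B (chr8:23020133-23069031), which encodes the TRAIL receptor DR5, had gene-end peaks in the 4 libraries with V2084D and no peak in either WT library. At the upper end, V2084D shSTUB1 replicates 1 and 2 had a peak with folds of 3.81 and 5.88 and 7 and 9 reads at the summit, from 23069002 to 23069435 when merged. V2084D replicates 1 and 2 had a peak with folds of 4.12 and 4.21 and 6 and 7 reads, from 23068515 to 23068813. The 2 regions did not overlap and lay 188 bp apart. They rest on summits of 6 to 9 reads, and how often all regions differ in this way was not tested, so nothing is read from their positions about V2084D shSTUB1 against V2084D. At the lower end, a region within 1000 bp of an end of RHOBTB2 held a peak in V2084D shSTUB1 replicate 1 (fold 4.43, 6 reads) and V2084D replicate 2 (7.53, 13 reads). By rank within their lists, the upper-end summits stood at the 6.69th and 56.6th percentile of −log10 q in V2084D shSTUB1 and the 8.73rd and 14.3rd in V2084D. With exact Poisson 95% intervals of 2.20 to 13.1 for 6 reads and 4.12 to 17.1 for 9, a lack of a peak in the WT libraries, the shallowest of the series, does not show that the region was closed there.

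SESN1 (chr6:108984309-109094846) encodes sestrin 1, a stress protein that restrains the mTORC1 kinase, and its upper end, which is its most upstream start, faces the start of CEP57L1. Merged, this end formed 1 region of 1361 bp with peaks in all 6 libraries. The folds of the strongest peak were 8.65 and 5.37 in V2084D shSTUB1, 6.90 and 6.87 in V2084D, and 4.6 and 5.11 in WT. The summits held 26 and 12 reads in V2084D shSTUB1, 15 and 24 in V2084D, and 7 and 8 in WT. Divided by relative depth these were 17.4 and 9.74 in V2084D shSTUB1, 12.9 and 14.2 in V2084D, and 6.91 and 8 in WT, so that WT lay below both other groups without overlap. Of 3163 genes with a gene-end peak in all 6 libraries, 13.1% were higher in both V2084D than in both WT libraries by this measure, and 21.1% were higher in both V2084D shSTUB1 than in both WT libraries. Of the 4 p53 target genes with peaks in all libraries, SESN1 met the V2084D pattern, and SESN1 and MDM2 met the V2084D shSTUB1 pattern. For MDM2 the reads divided by relative depth were 8.72 and 13.8 in V2084D shSTUB1, against 7.89 and 8 in WT. None met an opposite pattern (15.2% for WT above V2084D and 17.6% for WT above V2084D shSTUB1), and none differed without overlap between V2084D shSTUB1 and V2084D (12.3% higher and 9.67% lower).

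The WT peaks at the SESN1 end did not cover the same bases. WT replicate 1 had its summit 690 bp beyond the SESN1 end, on the CEP57L1 side, and WT replicate 2 had its peak over the SESN1 start. In the libraries with V2084D the strongest summit lay 632 to 652 bp beyond the SESN1 end, also on the CEP57L1 side. In V2084D shSTUB1 replicate 2 the peak over the start held as many reads, 12. The reads compared above are therefore not all from the same position. V2084D shSTUB1 replicate 1 and V2084D replicate 2 had single peaks of 1138 and 1176 bp that spanned both positions. V2084D shSTUB1 replicate 2 had 1 peak over the start and 1 on the CEP57L1 side, and V2084D replicate 1 had 1 peak on each side of the start and none over it. The internal starts of SESN1 had a peak in V2084D shSTUB1 replicate 1 (fold 4.91, 10 reads), V2084D replicate 2 (6.61, 15 reads) and WT replicate 1 (5.71, 7 reads). The V2084D replicate 2 peak did not reach the element shown above. Weak peaks of 4 reads each lay near ARMC2 in V2084D shSTUB1 replicate 1 and V2084D replicate 2.

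**Figure D4:**
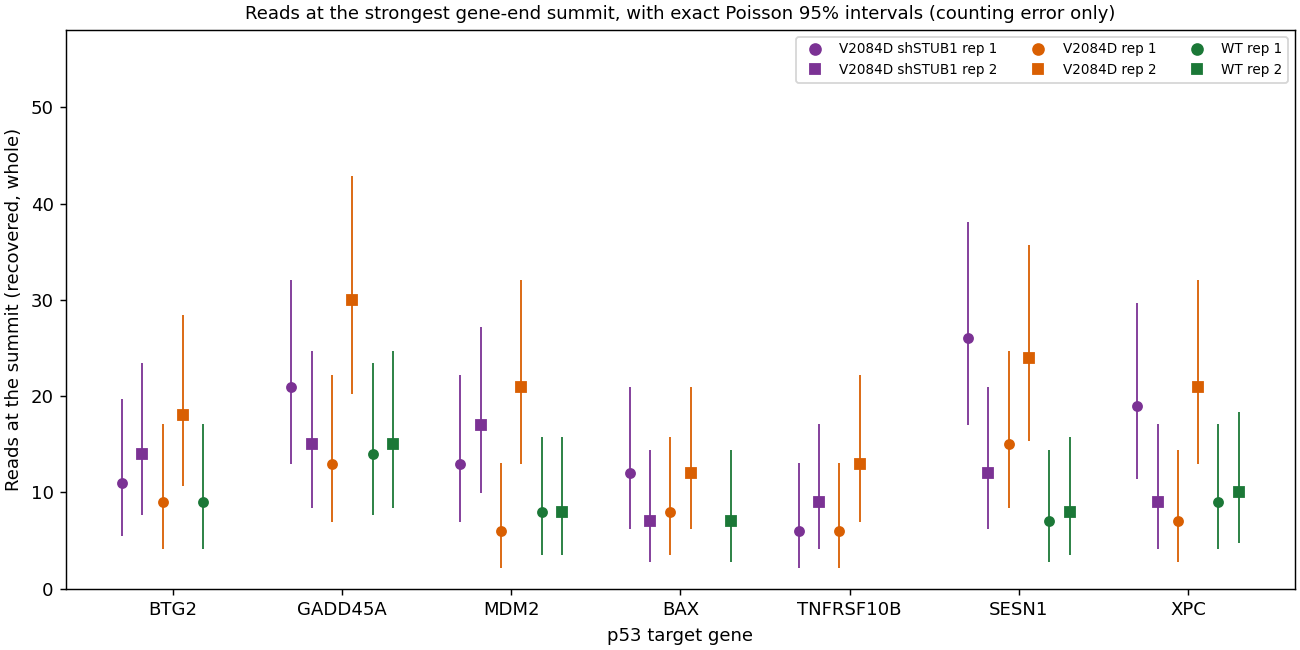
Reads recovered at the strongest gene-end summit (vertical axis, whole reads) for the 7 p53 target genes with a gene-end peak, with exact Poisson 95% intervals that cover counting error only; circles are replicate 1 and squares replicate 2, and a missing symbol means no gene-end peak. Most intervals overlap between groups, and at SESN1 the WT libraries have 7 and 8 reads against 12 to 26 in the other libraries. Some SESN1 intervals overlap between WT and the other groups, and some do not. The reads are not divided by relative depth, and the WT libraries are the shallowest.

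XPC (chr3:14145147-14178601), the damage sensor of global nucleotide excision repair, shares its start region with LSM3, and that end carried a peak in all 6 libraries. The folds were 9.52 and 5.43 in V2084D shSTUB1, 4.82 and 9.17 in V2084D, and 6.17 and 6.55 in WT. The summits held 19 and 9 reads in V2084D shSTUB1, 7 and 21 in V2084D, and 9 and 10 in WT, so the groups overlapped. The lower end, also within 1000 bp of an end of TMEM43, had a peak in both V2084D shSTUB1 libraries (folds 6.0 and 5.11) and in V2084D replicate 2 (6.25), with none in V2084D replicate 1 or either WT library.

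The wider p53 pathway was read at gene ends from lists chosen by function. MDM4, the p53-binding relative of MDM2, had a gene-end peak in 5 libraries, with folds of 8.64 and 8.59 in V2084D shSTUB1, 7.59 and 8.82 in V2084D and 9.14 in WT replicate 1, and none in WT replicate 2. Of 16 p53 regulators, 10 and 10 had a gene-end peak in V2084D shSTUB1, 6 and 13 in V2084D, and 9 and 7 in WT. Of 13 other targets in arrest and senescence, 11 and 10 had one in V2084D shSTUB1, 7 and 13 in V2084D, and 8 and 8 in WT. The V2084D replicates lay on both sides of WT in both lists. Of 14 other apoptosis targets the counts were 10 and 7 in V2084D shSTUB1, 5 and 9 in V2084D, and 7 and 5 in WT. Of 14 repair and metabolism targets they were 9 and 10 in V2084D shSTUB1, 9 and 13 in V2084D, and 10 and 4 in WT. The V2084D and WT ranges overlapped in each of the 4 lists. V2084D shSTUB1 lay above WT without overlap for the regulators and the arrest and senescence targets, and overlapped WT in the other lists. Over all protein-coding genes the shares were 48.1% and 40.6% in V2084D shSTUB1, 31.1% and 54.7% in V2084D, and 32.3% and 24.2% in WT, so that V2084D shSTUB1 lay above WT there too.

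In these 4 lists no gene was reached in both V2084D and neither WT library, where 5.07% of all protein-coding genes were, and none the opposite way (0.0501%). CDKN2A, which encodes the MDM2 inhibitor ARF, had one in both V2084D shSTUB1 libraries (folds 4.29 and 4.32, at positions that did not overlap), in V2084D replicate 2 (4.79), and in neither WT library. It was the 1 gene of the 4 lists reached at a gene end in both V2084D shSTUB1 and neither WT library, a pattern of 7.07% of all protein-coding genes. Within 10 kb, CDKN2A had a peak in 5 of the 6 libraries, so also in at least 1 WT library. SESN3, a relative of SESN1, was the 1 gene of the lists whose gene-end peak was missing in both V2084D shSTUB1 libraries and listed in both V2084D (folds 5.0 and 5.03) and both WT libraries (5.05 and 5.24). Of all protein-coding genes, 0.656% were reached in both V2084D and neither V2084D shSTUB1 library, and 0.135% in both WT and neither V2084D shSTUB1 library. The 4 SESN3 peaks overlapped each other and held 8 and 14 reads in V2084D and 10 and 10 in WT. CDKN2A and SESN3 are named for these patterns out of all genes of the lists, and nothing is read from them about the pathway.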

How the data were processed

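The sample titles gave the groups of the 6 Huh7 ATAC-seq libraries. MACS2, Bowtie2, Trimmomatic, Picard, SAMtools, deepTools and bedtools are named, with build hg38, per the submitters' processing notes. Their versions, settings and any read shift are not given in the sources used. The lists deposited by the authors were called per library and hold, per summit, a fold (a ratio over local background), a −log10 p and −log10 q, a score and the summit offset. Positions are 1-based. Reads at a summit were recovered from the deposited fold and −log10 p, assuming a Poisson p and a pseudocount of 1, for 99.989% (rounded) to 100% of the summits of a library (tolerance 0.001). The lowest background gave relative depth. Genes and 250-base windows came from RefSeq GRCh38.p14 tables; exons were not used. Python 3.11.15, pandas 2.3.3 and SciPy 1.17.1 were used, and the scripts were tested on simulated lists. The members and lists were chosen with earlier results of these data known. All 10 genes are reported, with MDM4, neighbouring genes within 1000 bp of a peak, and pathway genes present in both libraries of a group and neither of another; some list genes are not reported here by name. As alternatives, a minimum −log10 q of 5, equal list length, other windows (500 and 2000 bp, flanks of 5000 bp or none), summits, promoter windows (added after the data were seen), leaving out single libraries, and a block on the replicate number were tried.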

Additional observations from a re-analysis of the deposited data

How the results depend on the processing

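The 2-gene surplus of gene-end peaks in V2084D over WT ranged from 1.5 (equal list length) to 2.5 over the alternatives. That in V2084D shSTUB1 over WT ranged from 0.5 (equal list length) to 2.5. At the stricter q the groups overlapped, with 6 and 2 genes in V2084D shSTUB1, 1 and 7 in V2084D, and 1 and 2 in WT. Both surpluses were 2 whichever single library was left out. This was fixed in advance, since the counts were 7 and 7 in each group with V2084D and 5 and 5 in WT. For V2084D shSTUB1 against V2084D the surplus was 0 except at equal length (-1). With the replicate block (labels permuted within same-numbered libraries) the surplus was 2 genes for V2084D over WT (exact two-sided p of 0.5), 0 for V2084D shSTUB1 over V2084D (p of 1) and 2 for V2084D shSTUB1 over WT (p of 0.5), and 0.5 is the smallest possible. Nothing beyond the shared number pairs the libraries. The peak surplus of V2084D shSTUB1 over V2084D, 0.5 peaks, reversed to -1 at the stricter q, to -1.5 at equal length and to -1.5 in gene bodies alone, and ran from -4 (without V2084D replicate 1) to 5 (without V2084D replicate 2). That of V2084D over WT ran from 2 to 11 and that of V2084D shSTUB1 over WT from 4 to 10 without single libraries. The count of p53 target genes in both V2084D and neither WT library was 0 at equal length and 0 by promoter windows, and 1 to 2 without single libraries (2 without either WT library). In both V2084D shSTUB1 and neither WT library it was 2 at the stricter q (BTG2 and MDM2), 0 at equal length and 0 by promoter windows, and 1 to 2 without single libraries (2 without either WT library). At the stricter q the V2084D gene was SESN1 in place of TNFRSF10B. Over all protein-coding genes, equal length gave 393 (V2084D, not WT), 347 (WT, not V2084D), 255 (V2084D shSTUB1, not V2084D), 336 (V2084D, not V2084D shSTUB1), 350 (V2084D shSTUB1, not WT) and 349 (WT, not V2084D shSTUB1). Promoter windows gave 16 (WT, not V2084D). Without single libraries the counts ran from 1102 to 3775 (V2084D, not WT), 12 to 697 (WT, not V2084D), 89 to 2151 (V2084D shSTUB1, not V2084D), 188 to 1247 (V2084D, not V2084D shSTUB1), 1848 to 3151 (V2084D shSTUB1, not WT) and 61 to 196 (WT, not V2084D shSTUB1); without V2084D replicate 1 the first was 3775, and without V2084D replicate 2 the second was 697. Leaving out a library asks for a peak, or for its absence, in only 1 library of that group. These counts, and those of the p53 target genes without single libraries, can therefore only stay equal or rise. What sets the size of each rise was not tested. Depth limits all of this: medians of 8 to 12 reads per summit cannot show the absence of a region.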

Other observations

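The median width of peaks at the p53 target genes was 351 and 407 bp in V2084D shSTUB1, 299 and 489.5 bp in V2084D, and 266 and 264 bp in WT, where all peaks of the same lists had medians of 370 and 328.5 bp, 303 and 396 bp, and 291 and 270 bp. The median percentile of their −log10 q within the list was 59.1 and 56.6 in V2084D shSTUB1, 40.5 and 72.9 in V2084D, and 46.0 and 43.8 in WT. V2084D replicate 2, the deepest library, was highest in both.

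Several peaks counted here are shared with neighbours: the ends of SESN1 and XPC with CEP57L1 and LSM3, the FAS start with ACTA2, the lower ends of TNFRSF10B and XPC with RHOBTB2 and TMEM43, and the BAX flank with FTL. Those peaks belong to either gene of the pair as far as these lists show.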
